A study of Mus musculus with 8 samples.

Results

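The 7 genes *Cdkn1a*, *Cdkn1b*, *Cdkn1c*, *Cdkn2a*, *Cdkn2b*, *Cdkn2c* and *Cdkn2d*, which encode the cyclin-dependent kinase (CDK) inhibitors of the mouse, were examined in AtT20 cells after incubation with HX630. AtT20 is an established line of murine pituitary corticotroph tumor cells, which make ACTH from the *Pomc* gene. HX630 is a synthetic compound that activates the retinoid X receptors (RXRs), nuclear receptors that pair with many others. The 4 control samples had no HX630, the 4 HX630 samples had 10 μM HX630, and every sample was incubated for 48 hr in DMEM with stripped serum. HX630 was added from a stock in DMSO, and the labels describe the control only as lacking HX630. Each sample was hybridized to 1 single-color Agilent array, and the question asked of each gene was whether its mRNA signal differed between the groups. Members were found by the RefSeq accession that the array files give for each probe, which yielded 10 probes of 7 genes among 39429 probes of the array, and each probe was kept apart. Of these, 8 probes of 6 genes met the signal criterion for testing, which was to be well above background on 4 or more arrays, and they were tested among 28543 probes in all. The labels do not say whether the replicates were separate cultures, so p-values measure only the spread between these samples.

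CDK inhibitors hold back the cell cycle by binding the kinases that drive it. The INK4 proteins, encoded by the *Cdkn2* genes, bind CDK4 and CDK6 and keep them from the D-type cyclins, so that the retinoblastoma protein stays active and the E2F factors stay silent. The Cip/Kip proteins, encoded by the *Cdkn1* genes, bind whole cyclin and CDK complexes, above all those of CDK2. In the pituitary gland these genes act as brakes on growth, and mice without *Cdkn1b* or *Cdkn2c* develop pituitary tumors.

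The sequences just upstream of the transcription starts are shown for *Cdkn1a*, the member that fell, and for *Cdkn2b* and *Cdkn2c*, which rose. Each sequence is the 250 bases before a transcription start as RefSeq gives it on GRCm38.p6, written 5′ to 3′ along the gene's strand. Capitals mark matches to any of 6 motifs searched on both strands: the GC box GGGCGG, the CCAAT box CCAAT, the TATA box TATAAA, the nuclear receptor motif AGGTCA, the cyclic AMP response element TGACGTCA and the p53 site core, which is CATG, then 6 bases of any kind, then CATG. Matches to different motifs did not overlap in the windows shown. The table did not tie a start to a probe, and the motifs were chosen after the sequences were seen. The windows lie at chr17:29090729-29090978 and chr17:29093519-29093768 (plus strand) for *Cdkn1a*, at chr4:89311033-89311282 (minus strand) for *Cdkn2b*, and at chr4:109666757-109667006 and chr4:109665373-109665622 (minus strand) for *Cdkn2c*.
Cdkn1a, start 1: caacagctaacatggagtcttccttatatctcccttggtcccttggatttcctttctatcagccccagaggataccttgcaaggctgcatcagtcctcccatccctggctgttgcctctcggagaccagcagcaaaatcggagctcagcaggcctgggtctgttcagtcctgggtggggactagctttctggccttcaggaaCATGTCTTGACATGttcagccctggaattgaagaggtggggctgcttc
Cdkn1a, start 2: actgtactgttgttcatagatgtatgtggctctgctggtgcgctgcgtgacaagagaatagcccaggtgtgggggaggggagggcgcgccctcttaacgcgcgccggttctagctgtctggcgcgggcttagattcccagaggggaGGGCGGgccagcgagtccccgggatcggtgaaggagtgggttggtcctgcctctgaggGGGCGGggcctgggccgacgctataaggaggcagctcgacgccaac
Cdkn2b: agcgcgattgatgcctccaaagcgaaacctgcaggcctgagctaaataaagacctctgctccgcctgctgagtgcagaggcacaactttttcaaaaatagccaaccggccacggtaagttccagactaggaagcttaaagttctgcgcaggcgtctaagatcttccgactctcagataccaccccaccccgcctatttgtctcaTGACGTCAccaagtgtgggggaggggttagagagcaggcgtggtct
Cdkn2c, start 1: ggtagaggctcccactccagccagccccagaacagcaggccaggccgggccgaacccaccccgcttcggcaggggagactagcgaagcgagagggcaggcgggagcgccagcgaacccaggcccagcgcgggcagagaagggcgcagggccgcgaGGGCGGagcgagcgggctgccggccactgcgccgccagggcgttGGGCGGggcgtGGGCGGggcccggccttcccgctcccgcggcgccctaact
Cdkn2c, start 2: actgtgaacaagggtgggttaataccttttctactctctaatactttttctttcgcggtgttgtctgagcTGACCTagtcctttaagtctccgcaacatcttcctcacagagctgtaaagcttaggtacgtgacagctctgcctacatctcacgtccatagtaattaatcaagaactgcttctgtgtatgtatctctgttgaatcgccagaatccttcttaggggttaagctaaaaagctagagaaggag

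The window before start 1 of *Cdkn1a* held 1 p53 site core, 48 to 35 bases upstream, where p53 is the damage-responsive factor for which *Cdkn1a* is a textbook target. Among 32851 upstream windows of the same length, 0.49% held this core. Start 2 of *Cdkn1a* had no such core but 2 GC boxes, a motif found in 32.7% of the windows. *Cdkn2b* had 1 cyclic AMP response element, 46 to 39 bases upstream, which 1.55% of the windows held, and none of the other motifs. Start 1 of *Cdkn2c* had 3 GC boxes, whereas start 2 had 1 nuclear receptor motif, on the other strand, which 14% of the windows held. CCAAT and TATA boxes occur in 33.8% and 12.4% of the windows and were in none of the 5 sequences above. Entries were found for 6 of the 7 members, 9 starts in all, and *Cdkn1c* had none. These matches describe letters only.

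Microarray analysis gave opposite directions within the family (figure of signals by array). *Cdkn1a* was down-regulated at both of its probes, to 29.2% and 52.5% of the control signal. *Cdkn2b* was up-regulated at both of its probes, 1.61-fold and 1.59-fold, and *Cdkn2c* was up-regulated 1.64-fold. *Cdkn1c* and *Cdkn2d* were higher by 1.20-fold and 1.24-fold, under the 1.5-fold threshold, *Cdkn1b* was not called, and *Cdkn2a* was not well above background. To be called, a probe had to change by over 1.5-fold and to have an adjusted p under 0.01 in limma, with Benjamini-Hochberg adjustment over the 28543 probes tested. In this way 3 of the 8 member probes were called higher and 2 lower, where 7.47% of all tested probes were called higher and 11.1% lower. Without the fold threshold these were 5 and 2 probes, against 20.2% and 25.4% of all tested probes. The groups did not overlap at 7 of the 8 probes, 5 with HX630 higher and 2 with HX630 lower, against 55.7% of all tested probes, 24.4% and 31.3% in these directions. Such RNA from whole cultures cannot tell apart a change in RNA per cell and a change in the number of cells that hold it.

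**Figure D1:**
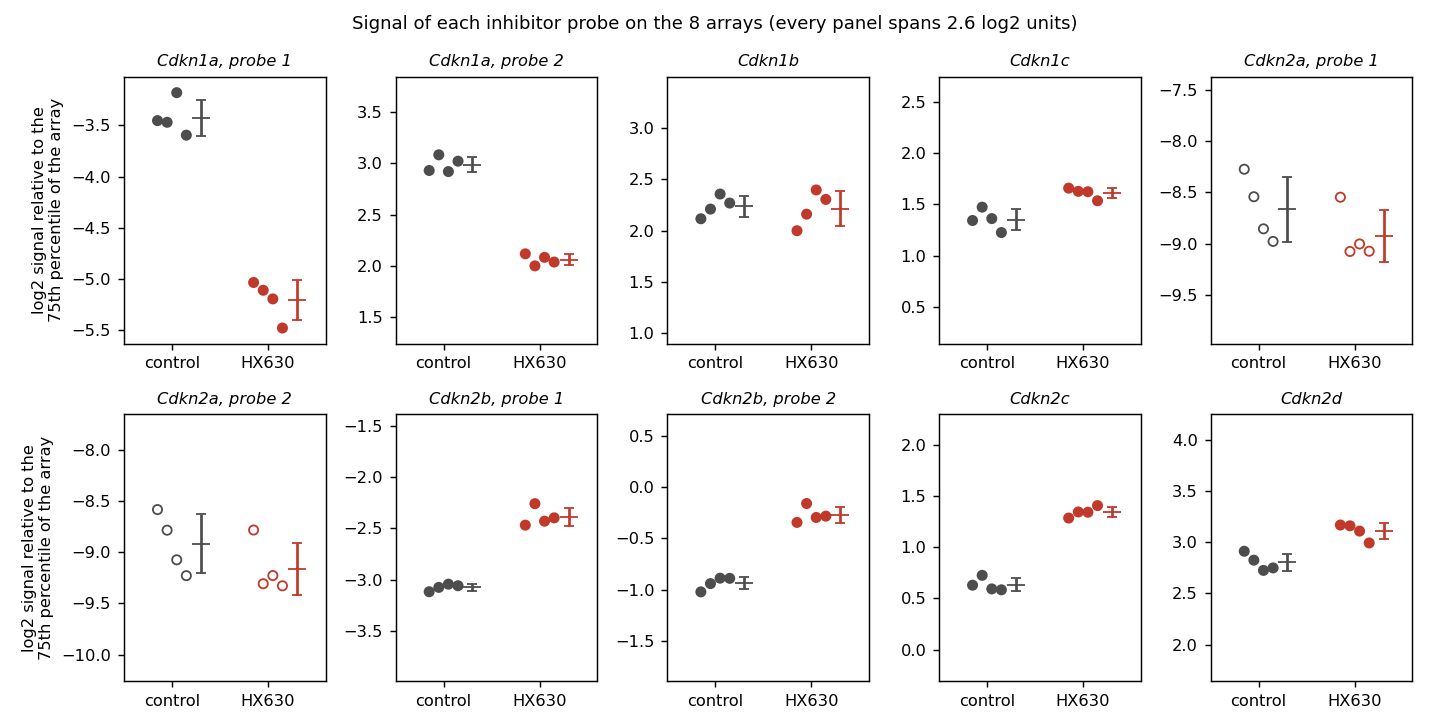
Signal of the 10 inhibitor probes on the 4 control and 4 HX630 arrays, as log2 of the processed intensity relative to the 75th percentile of the array (vertical axis, 1 panel per probe). Points are arrays, open points are not well above background, and crosses with bars give the mean and SD; the HX630 points lie below the control points for both *Cdkn1a* probes and above them for *Cdkn2b*, *Cdkn2c*, *Cdkn1c* and *Cdkn2d*.

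Values below are log2 signals relative to the 75th percentile of each array, so that 0 is the signal at that percentile. They are compared between groups within a probe and not between probes. The 75th percentile of the arrays lay between 1335 and 1863 intensity units in control and between 1803 and 1899 with HX630. Control arrays 1 and 2, at 1335 and 1357 units, were dimmer than every other array. Without control array 1, 2568 probes were called higher and 2878 lower, against 2131 and 3182 with all arrays. On each array 69.7% to 73.5% of probes were well above background. No probe was saturated. Correlations between arrays across probes were 0.994 to 0.998 within groups and 0.978 to 0.984 between them. All control arrays were on slide 1 and all HX630 arrays on slide 2, so the treatment cannot be told apart from the slide and its scan for any value here. Of 7 corticotroph marker genes *Pomc*, *Tbx19*, *Neurod1*, *Pcsk1*, *Crhr1* and *Pitx1*, 6 in all, were well above background on all 8 arrays, while *Avpr1b* was so on none.

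*Cdkn1a* encodes p21, a Cip/Kip inhibitor of CDK2 complexes. Its probe 1 (A_55_P1986282, for NM_001111099) gave -3.45, -3.47, -3.18 and -3.59 in control samples 1 to 4. The same probe gave -5.03, -5.11, -5.19 and -5.48 in HX630 samples 1 to 4. Every HX630 sample was below every control sample, and the gap between the groups was wider than the range within either. The mean was -3.42 ± 0.17 (SD, n = 4) in control and -5.20 ± 0.19 (SD, n = 4) with HX630, a log2 fold change of -1.78 ± 0.12 (SE; 95% confidence interval -2.06 to -1.50; limma, adjusted p = 8.07e-06). This probe was dim, at 122 to 206 intensity units in control and 42.7 to 55.1 units with HX630, though well above background on all 8 arrays.

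Probe 2 of *Cdkn1a* (A_51_P363947, for NM_007669) was bright, at 10174 to 14092 units in control and 7366 to 7820 units with HX630. It gave 2.93, 3.08, 2.92 and 3.02 in control samples 1 to 4 and 2.12, 2.00, 2.08 and 2.04 in HX630 samples 1 to 4. Again no HX630 sample reached a control sample. Control samples averaged 2.99 ± 0.078 (SD, n = 4) and HX630 samples 2.06 ± 0.052 (SD, n = 4), which gives a log2 fold change of -0.93 ± 0.049 (SE; interval -1.04 to -0.81; limma, adjusted p = 2.38e-06). In the two-sided exact permutation test over 70 regroupings of the arrays, each probe gave p = 0.0286, the smallest that 4 against 4 samples allow.

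Probe 2 stood on each array in 10 copies, which gives the spread between spots within an array. It does not give the technical error between arrays or slides. The copies varied by 2.96% to 4.03% (coefficient of variation) on the control arrays and by 3.70% to 6.65% on the HX630 arrays, and none was marked as an outlier. Intensities of single copies ran from 9459 to 14757 units in control and from 6740 to 8776 units with HX630. Even the copies did not overlap between the groups, as the plot of single copies shows.

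**Figure D2:**
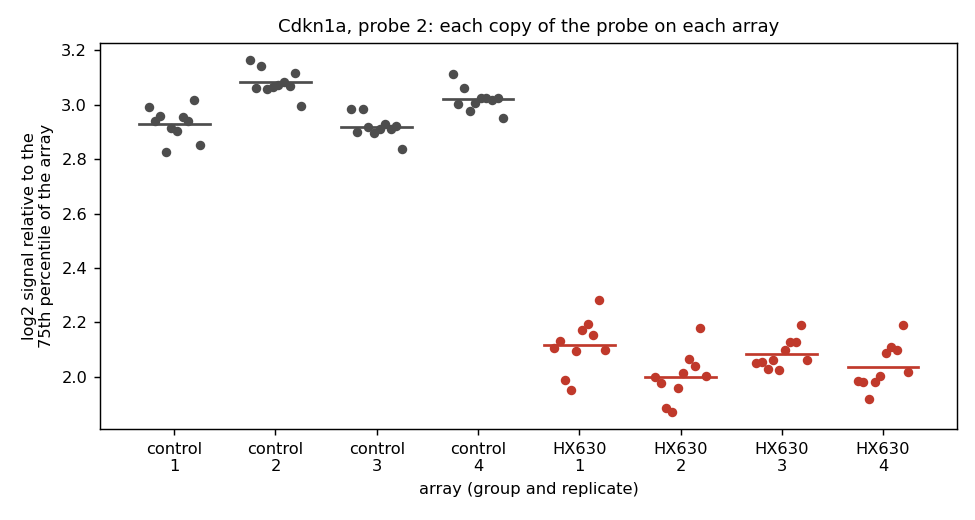
Each of the 10 copies of *Cdkn1a* probe 2 on each of the 8 arrays (horizontal axis), as log2 intensity relative to the 75th percentile of the array (vertical axis); lines are means over copies. All copies on the HX630 arrays lie below all copies on the control arrays.

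The 2 *Cdkn1a* probes fell by different amounts. Subtracting probe 2 from probe 1 within each array, which removes any scaling of the array, left -6.41 ± 0.23 (SD, n = 4) in control and -7.26 ± 0.18 (SD, n = 4) with HX630. The difference between the changes was -0.85 on the log2 scale (95% confidence interval -1.16 to -0.54; two-sided exact permutation p = 0.0286), and its ranges did not overlap, from -6.62 to -6.10 in control and from -7.51 to -7.11 with HX630. The probes are assigned to different RefSeq transcripts of *Cdkn1a*, and they also differ in brightness. What part the transcript and the brightness have in this difference was not tested. With normexp background correction, the change of probe 1 was -1.36 and that of probe 2 was -0.90.

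*Cdkn1b* encodes p27, the Cip/Kip inhibitor that is degraded as cells enter S phase. Its probe (A_55_P2026562, for NM_009875) gave 2.12, 2.21, 2.36 and 2.27 in control and 2.00, 2.16, 2.40 and 2.30 with HX630, in samples 1 to 4. All control values lay within the range of the HX630 values. The log2 fold change was -0.023 ± 0.093 (SE; interval -0.24 to 0.19; limma, adjusted p = 0.85), and the exact permutation test gave p = 0.83. The interval does not reach a 1.5-fold change in either direction (0.585 on the log2 scale). The HX630 samples spread more than the control samples (SD 0.17 and 0.10), and the sign of the mean difference turned under other scalings.

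*Cdkn1c* encodes p57, an imprinted Cip/Kip inhibitor that takes part in the exit of pituitary progenitors from the cell cycle. Its probe (A_51_P339540, for NM_009876) gave 1.34, 1.47, 1.36 and 1.23 in control and 1.66, 1.63, 1.62 and 1.54 with HX630, in samples 1 to 4. The lowest HX630 sample was just above the highest control sample. The mean was 1.35 ± 0.10 (SD, n = 4) in control and 1.61 ± 0.053 (SD, n = 4) with HX630, a log2 fold change of 0.26 ± 0.057 (SE; interval 0.13 to 0.39; limma, adjusted p = 0.00529). This was under an adjusted p of 0.01 but not past the 1.5-fold threshold. In 6 of the 8 fits with 1 array left out, and with no filter on dim probes, the adjusted p of *Cdkn1c* was above 0.01 (up to 0.0177, limma).

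Among the INK4 genes, *Cdkn2a* encodes p16 and, from another first exon, the p53 activator ARF. Both of its probes (A_55_P2008437 and A_55_P2008438, for NM_009877) stayed at background level on all 8 arrays. Their intensities were 3.34 to 4.82 units and 2.80 to 4.09 units, below the dimmest probes counted as above background, which had 8.92 to 18.1 units depending on the array. No fold change is given, and a signal of *Cdkn2a* was not detectable with these probes in either group. Its neighbor on chromosome 4, *Cdkn2b*, had a clear signal.

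*Cdkn2b* encodes p15, the INK4 inhibitor known as a target of TGF-β signaling. Probe 1 (A_55_P1979526, for NM_007670) gave -3.12, -3.08, -3.04 and -3.06 in control and -2.47, -2.26, -2.43 and -2.40 with HX630, in samples 1 to 4. Probe 2 (A_55_P1988183, for the same accession) gave -1.02, -0.94, -0.89 and -0.89 in control and -0.34, -0.16, -0.30 and -0.28 with HX630. At both probes all HX630 samples were higher, and HX630 sample 2 was the highest. The log2 fold changes were 0.69 ± 0.051 (SE; interval 0.57 to 0.80; limma, adjusted p = 1.38e-05) for probe 1 and 0.66 ± 0.052 (SE; interval 0.54 to 0.79; limma, adjusted p = 1.93e-05) for probe 2.

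Both *Cdkn2b* probes rose by a similar amount. Probe 1 minus probe 2 within each array was -2.14 ± 0.032 (SD, n = 4) in control and -2.12 ± 0.015 (SD, n = 4) with HX630. The changes differed by 0.021 on the log2 scale (95% confidence interval -0.051 to 0.094; two-sided exact permutation p = 0.286). Probe 1 was dim, at 154 to 226 units in control, and with normexp background correction its log2 fold change was 0.43 (limma, adjusted p = 0.00213), under the 1.5-fold threshold. Probe 2, at 657 to 1006 units in control, kept 0.67 with that correction. The lower bounds of both intervals, 1.48-fold and 1.46-fold, lay just under the threshold.

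*Cdkn2c* encodes p18, the INK4 inhibitor most tied to the pituitary gland by its knockout mice. Its probe (A_55_P2074796, for NM_007671) gave 0.63, 0.72, 0.59 and 0.58 in control and 1.28, 1.34, 1.34 and 1.40 with HX630, in samples 1 to 4. The 4 values of each group lay close together, far from those of the other group. Means were 0.63 ± 0.065 (SD, n = 4) in control and 1.34 ± 0.050 (SD, n = 4) with HX630, a log2 fold change of 0.71 ± 0.045 (SE; interval 0.61 to 0.82; limma, adjusted p = 6.05e-06). This was the largest rise among the member probes as reported, but with quantile normalization probe 1 of *Cdkn2b* rose slightly more (0.74 against 0.73). The interval of *Cdkn2c* overlapped those of both *Cdkn2b* probes. The whole interval lay above 1.5-fold.

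*Cdkn2d* encodes p19, the INK4 inhibitor whose level moves with the cell cycle. Its probe (A_55_P2022251, for NM_009878) gave 2.91, 2.82, 2.72 and 2.75 in control and 3.17, 3.16, 3.11 and 2.99 with HX630, in samples 1 to 4. The groups did not overlap, but the lowest HX630 sample was close to the highest control sample. The log2 fold change was 0.30 ± 0.058 (SE; interval 0.17 to 0.44; limma, adjusted p = 0.0026), which did not reach 1.5-fold. The bounds of this interval correspond to 1.12-fold and 1.36-fold. Without HX630 replicate 2 the adjusted p in limma was 0.0102.

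Ranked among the changes of all 28543 tested probes, the members spanned nearly the whole scale. The *Cdkn1a* probes were at percentiles 1.17 and 5.69, counted from the most negative change. *Cdkn1b* was at 53.4, *Cdkn1c* at 77.7 and *Cdkn2d* at 80.3. The *Cdkn2b* probes at 93.4 and 93.0 and *Cdkn2c* at 93.8 were close to one another. The median change of all tested probes was -0.056 on the log2 scale, and the median of the 8 member probes was 0.28.

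**Figure D3:**
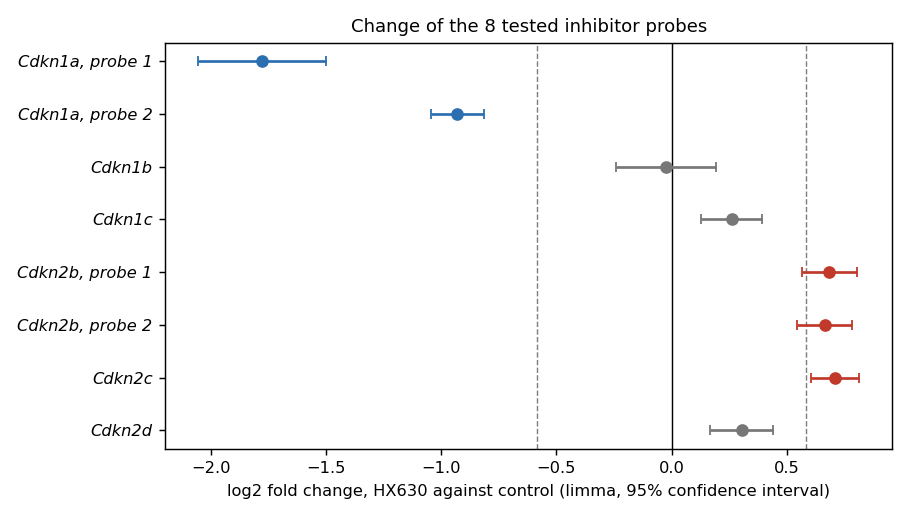
Log2 fold change of the 8 tested inhibitor probes, HX630 against control (horizontal axis), with 95% confidence intervals from limma; dashed lines mark 1.5-fold. Both *Cdkn1a* probes lie beyond 1.5-fold lower, and *Cdkn2b* and *Cdkn2c* beyond 1.5-fold higher.

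Processing moved the sizes of these changes, as the plot of alternatives shows. Over the scaling as reported and 4 others, *Cdkn1a* ran from -1.78 to -1.55 at probe 1 and from -0.93 to -0.70 at probe 2, and *Cdkn2c* from 0.71 to 0.94. Over the same scalings *Cdkn1c* ran from 0.26 to 0.49, *Cdkn2d* from 0.30 to 0.54 and *Cdkn1b* from -0.023 to 0.21, all under 1.5-fold. Over all 23 alternatives, which add normexp correction, other filters and tests and single arrays left out, the log2 fold change of *Cdkn1a* ran from -1.84 to -1.36 at probe 1 and from -0.95 to -0.70 at probe 2, and both stayed called lower in all 23. *Cdkn2c* ran from 0.69 to 0.94 and probe 2 of *Cdkn2b* from 0.63 to 0.90, called higher in all 23. Probe 1 of *Cdkn2b* ran from 0.43 to 0.92 and lost its call under normexp correction alone. Scaling to 9 spike-in control probes shifted the median of all probes by 0.23 upward. Relative to the median of all tested probes, the changes as reported were -1.72 and -0.87 for *Cdkn1a*, 0.74 and 0.72 for *Cdkn2b*, 0.77 for *Cdkn2c*, 0.36 for *Cdkn2d*, 0.32 for *Cdkn1c* and 0.033 for *Cdkn1b*. Scaling each array by a constant cannot move these values. With normexp correction they were -1.22 and -0.76 for *Cdkn1a*, 0.57 and 0.80 for *Cdkn2b* and 0.90 for *Cdkn2c*. For *Cdkn2d*, *Cdkn1c* and *Cdkn1b* that correction gave 0.42, 0.52 and 0.18.

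**Figure D4:**
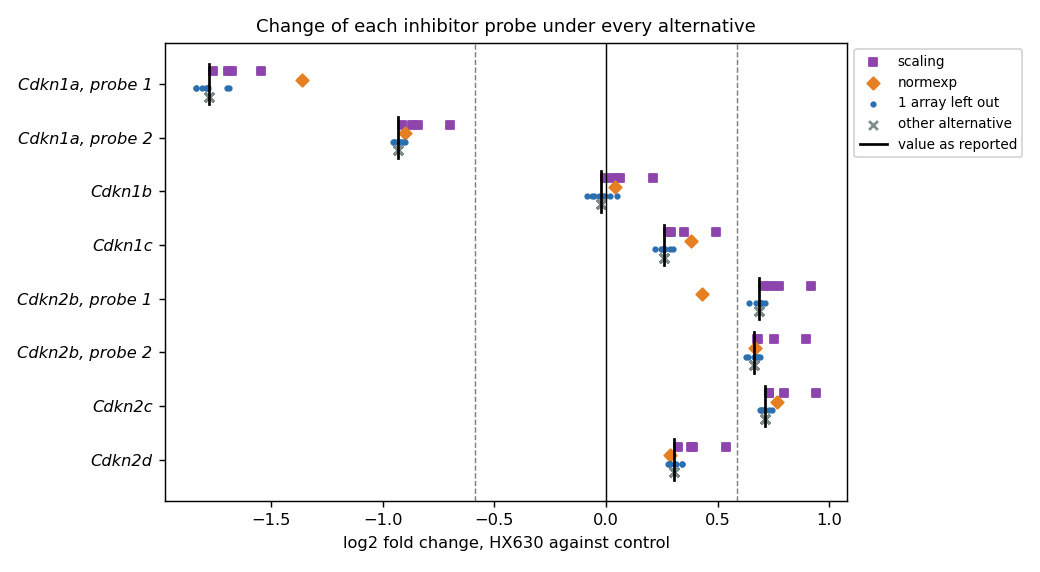
Log2 fold change of each tested inhibitor probe, HX630 against control (horizontal axis), as reported (vertical lines) and under each of the 23 alternatives (symbols); dashed lines mark 1.5-fold. The points of *Cdkn1b* fall on both sides of 0, and those of every other probe stay on 1 side.

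Among the kinases and cyclins that the inhibitors bind, 1 gene was called higher and 1 lower. Of 13 genes in this list 9 were tested, 7 had a positive log2 fold change, as did 7110 of all 15318 genes, and the median log2 fold change was 0.30, where the median of all genes, each by its brightest tested probe, was -0.034. *Ccnb1*, counted as positive at 0.19, had other probes at -0.14 and -0.16. Of all 15318 genes, 8.38% were called higher and 11.2% lower. In this list 2 were called higher and 1 lower with quantile normalization (10.5% and 9.66% of all genes). Median scaling gave 3 and 1 (11.2% and 9.23%), and spike-in scaling gave 4 and 0 (16.9% and 6.62%). *Ccne1*, encoding cyclin E1, the partner of CDK2 at entry into S phase, rose from 2.23 ± 0.10 to 2.98 ± 0.041 (SD, n = 4), with a log2 fold change of 0.75 ± 0.055 (SE; limma, adjusted p = 1.28e-05). Its other probe rose by 0.65. *Ccnd3*, encoding the D-type cyclin D3, a partner of CDK4 and CDK6, fell from 1.75 ± 0.10 to 1.06 ± 0.089 (SD, n = 4), with a log2 fold change of -0.70 ± 0.066 (SE; limma, adjusted p = 5.72e-05). Its other probe gave -0.57, under 1.5-fold, and with spike-in scaling the change of the first probe was -0.46 and was not called. *Cdk4*, a direct target of the INK4 proteins, gave 0.18, and *Cdk6* was not well above background on any array.

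Downstream of these kinases, 12 of 13 genes for pocket proteins and E2F factors were tested, with 1 called higher, 1 lower and a median log2 fold change of 0.24. *E2f7*, an atypical E2F that represses transcription, had a log2 fold change of 0.90 ± 0.046 (SE; limma, adjusted p = 2.05e-06), while its other probe gave 0.10 (adjusted p = 0.445), so that its probes disagreed. *Tfdp2*, a dimerization partner of the E2F factors, gave -0.79 ± 0.049 (SE; limma, adjusted p = 5.34e-06), with -0.55 at its other probe and -0.55 with spike-in scaling, neither past 1.5-fold. *Rb1*, encoding the retinoblastoma protein, gave 0.33, below the threshold. *E2f1*, a classical activator, gave 0.56, just under 1.5-fold, and was called higher with quantile normalization (0.63), median scaling (0.65), spike-in scaling (0.80), normexp correction (0.69) and without control replicate 2 (0.59). The number called higher depended on the scaling: it was 3 of 12 (25%) with quantile normalization, where 10.5% of all genes were called higher, and 4 of 12 (33.3%) with median scaling (11.2% of all genes) or spike-in scaling (16.9%). Normexp correction gave 3 of 12 (6.14% of all genes), and no fold threshold gave 7 of 12 (24%).

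Factors known to control transcription of the inhibitors moved in both directions. Of 23 genes listed 20 were tested, and the median was 0.063. Called higher were 2 (10%) and lower 3 (15%), against 8.38% and 11.2% of all genes. With spike-in scaling 5 were called higher and 2 lower, with a median of 0.29, where 16.9% and 6.62% of all genes were called. *Klf4*, a known activator of *Cdkn1a*, fell from 1.72 ± 0.020 to 0.37 ± 0.11 (SD, n = 4), with a log2 fold change of -1.35 ± 0.057 (SE; limma, adjusted p = 8.31e-07). *Smad3*, which carries TGF-β signals to *Cdkn2b* and *Cdkn1a*, fell by 0.89 ± 0.043 (SE; limma, adjusted p = 1.52e-06). *Myc*, a repressor of both genes, gave -0.65 ± 0.047 (SE; limma, adjusted p = 1.27e-05), and was not called with median scaling (-0.56), spike-in scaling (-0.42) or normexp correction (-0.49). A known activator and a known repressor of *Cdkn1a* were thus both lower.

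Rises in this list were those of *Cebpa* and *Ezh2*. *Cebpa*, whose product C/EBPα arrests growth in part through p21, rose by 1.19 ± 0.080 (SE; limma, adjusted p = 8.38e-06), from -4.42 to -3.23. *Ezh2*, the histone methyltransferase of the Polycomb group known to silence *Cdkn2a*, rose by 0.63 ± 0.039 (SE; limma, adjusted p = 5.71e-06). *Trp53*, encoding p53, gave 0.29 and *Mdm2*, another p53 target and its inhibitor, gave -0.16, neither past 1.5-fold. *Men1*, whose product menin maintains *Cdkn1b* and *Cdkn2c* in endocrine cells, gave 0.089. *Zbtb17* and *Cbx7* were not well above background on at least 4 arrays.

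Of 12 genes for degradation of the inhibitor proteins 11 were tested, and 2 were called higher and none lower at these thresholds, with a median of 0.032. *Cul4b*, encoding a cullin of the ligases that degrade p21, gave -0.16 at the probe counted, while its other probe was called higher (0.82; limma, adjusted p = 5.64e-06), so that its probes disagreed. *Dtl*, the substrate receptor of the ligase that degrades p21 at replication forks, rose by 0.85 ± 0.031 (SE; limma, adjusted p = 4.84e-07). *Rnf123*, the ligase subunit that targets p27, gave 0.80 ± 0.11 (SE; limma, adjusted p = 4.18e-04), but it was dim (-4.85 in control) and gave 0.24 with normexp correction (adjusted p = 0.29). *Skp2* was not matched to a probe. In these 4 lists together 6 of 52 tested genes were called higher (11.5%) and 5 lower (9.62%), against 8.38% and 11.2% of all genes. The share called higher was 19.2% with quantile normalization (10.5% of all genes), 23.1% with median scaling (11.2%), 28.8% with spike-in scaling (16.9%), 13.5% with normexp correction (6.14%) and 42.3% with no fold threshold (24%).

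**Figure D5:**
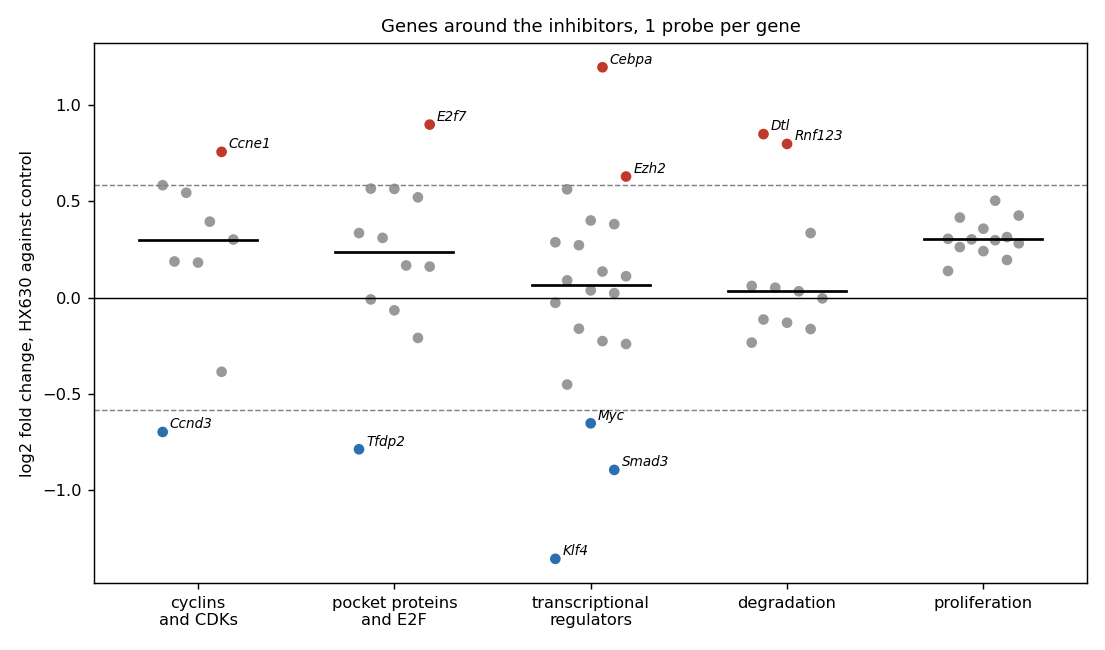
Log2 fold change, HX630 against control (vertical axis), of the tested genes of 4 lists around the inhibitors and of a proliferation list, 1 probe per gene. Bars are medians, dashed lines mark 1.5-fold, and the 11 called genes are named; all 13 proliferation genes lie above 0 and below 1.5-fold.

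Genes that mark proliferating cells were set beside the inhibitors. Of 14 genes listed 13 were tested, none was called at 1.5-fold, and all 13 had a positive log2 fold change, from 0.14 to 0.50 with a median of 0.30. Without the fold threshold all 13 were called higher in limma at an adjusted p below 0.01, where 24% of all genes were called higher and 27.2% lower. *Mki67*, the gene of the Ki-67 antigen, gave 0.26, and *Ccnf*, encoding cyclin F, gave 0.50. All 13 stayed positive with quantile, median and spike-in scaling and with normexp correction, while 1 was called at 1.5-fold with median scaling and 4 with spike-in scaling.

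Markers of other cell types were read on the same arrays. The 3 leukocyte markers reported here, *Cd3e*, *Csf1r* and *Ptprc*, were well above background on all 8 arrays, and their summed level, in units of the 75th percentile signal, was 2.85 to 3.44 in control and 1.29 to 1.46 with HX630. Within their own probes, the log2 fold changes were -1.44 for *Cd3e* and -0.72 for the brightest probe of *Csf1r*, both called lower. The other probes of *Csf1r* gave -0.15 and -0.31 and were not called, so that its probes disagreed. *Ptprc*, the common leukocyte antigen, gave -0.45 and was not called. Endothelial markers summed to 2.71 to 3.36 in control and 2.15 to 2.64 with HX630, and *Cdh5* and *Tek* were above background on no array. *Pecam1* (-0.59, called lower) and *Kdr* (-0.36, not called, with -0.06 at its other probe) were well above background on all 8 arrays. Fibroblast markers summed to 0.11 to 0.13 and 0.12 to 0.16, with *Lum* and *Pdgfra* above background on no array. *Col1a2*, *Col3a1* and *Dcn* were well above background on all 8 arrays. *Dcn*, dim at -5.85 in control, was called higher (1.04), while *Col1a1* (0.22), *Col1a2* (0.07) and *Col3a1* (-0.31) were not called. The other pituitary hormone markers summed to 0.14 to 0.27 and 0.17 to 0.20, with *Prl*, *Tshb* and *Cga* above background on no array. *Gh* and *Lhb* were well above background on all 8 arrays. *Gh*, dim at -5.08 in control, was called lower (-0.79), while *Lhb* (0.23) and *Pou1f1* (0.26) were not called. The corticotroph sum was 300.7 to 375.7 in control and 217.6 to 227.8 with HX630, but its members went both ways. *Pcsk1* fell by 2.06 on the log2 scale, *Crhr1* and *Neurod1* rose by 1.11 and 0.72, and *Pomc* (-0.45), *Tbx19* (-0.37) and *Pitx1* (-0.32) did not reach 1.5-fold. These sums add probes that differ in brightness per molecule and serve only to set the groups side by side. The part of these markers in the changes of the inhibitors was not tested.

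The genes most like each inhibitor over the 8 arrays were found by Pearson correlation with its brightest probe, among 14305 genes above background on all arrays. The correlations describe 8 arrays that share 2 groups, so they mostly follow the difference between the groups. For *Cdkn1a* the closest were *Erf*, *Mageb1* and *Prdx4* (each r = 0.999), and 2364 genes exceeded r = 0.95. For *Cdkn2b* they were *Lhpp* (0.998), *R3hdm4* (0.996) and *Stard6* (0.996), and for *Cdkn2c* they were *Ttyh3* (0.998), *Mad2l2* (0.998) and *Lyplal1* (0.997). *Cdkn1c* was closest to *Faap24* (0.994), *Pdhx* (0.991) and *Itga3* (0.988), and *Cdkn2d* to *Cdca7* (0.995), *Rbm14* (0.995) and *Ckap5* (0.994). *Cdkn1b*, with no difference called, was closest to *Ttc19* (0.988), *Cfap300* (0.985) and *Utp6* (0.980), and only 15 genes exceeded r = 0.95 with it.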

How the data were processed

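Total RNA of 4 control and 4 HX630 samples (10 μM, 48 hr) was labeled with Cy3 and hybridized to 8 Agilent mouse arrays. The authors deposited the intensity of every spot as given by Agilent Feature Extraction 10.7.3.1, named in the submitters' processing notes, after background subtraction, without scaling between arrays. A second deposited table, from GeneSpring, holds log2 values of these arrays, and each column was found to equal the log2 intensity less that array's 75th percentile (column medians -3.91 to -3.68). It served as an alternative.

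The same quantity was computed here from the intensities, without 1377 control spots of 44397 and without outlier spots, and copies of a probe were averaged. Probes were matched to symbols by unversioned RefSeq accession (66.1% of 39429). Probes well above background on at least 4 arrays were fitted with limma 3.58.1 in R 4.3.3 (lmFit, eBayes, no block) and called where the fold change was over 1.5 and the Benjamini-Hochberg adjusted p under 0.01. Single probes also had a two-sided exact permutation test over 70 regroupings. The code was tested on simulated data. The number of arrays limits the precision.

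Genes were named by rule: all members, up to 3 called genes with the largest rise and 3 with the largest fall in each list, and the 3 genes most correlated with each member. Other list genes given with a value, among them *Cdk4*, *Rb1*, *E2f1*, *Ccnb1*, *Cul4b*, *Trp53*, *Mdm2*, *Men1*, *Mki67* and *Ccnf*, were chosen after their values were seen. The members and lists were chosen with earlier results of these data known. Alternatives changed the scaling, background correction, filter, outlier spots, variance model, test, threshold, replicate block and arrays left out. Scaling to the spike-in probes was taken from an earlier analysis that added it after seeing these data. Sequences and motif windows are RefSeq's on GRCm38.p6. The array's design uses another build, so no probe positions are given. A gene of the marker lists is not reported here.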

Additional observations from a re-analysis of the deposited data

Results flagged for a closer look

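Among the inhibitors, the named list genes and the genes most like the inhibitors, 74 groups of 4 arrays were examined for a sample far from the others, by the gap to its nearest neighbor as a share of the group's range. Above Dixon's critical value at the 95% level were 4 groups, where chance alone gives about 1 in 20, or 3.7 groups, and no inhibitor probe was among them. Control sample 1 was low for *Ezh2* (share 0.915; 1.00 against a mean of 1.12 in the others) and high for *E2f7* (share 0.896; 0.92 against 0.77). HX630 sample 1 was high for *Klf4* (share 0.832; 0.53 against 0.31), and HX630 sample 2 was high for *Cebpa* (share 0.836; -3.14 against -3.26).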

How the results depend on the processing

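Over 23 alternatives the member probes called lower stayed at 2, and those called higher ran from 2 to 5. With no fold change threshold the latter were 5, *Cdkn1c* and *Cdkn2d* being added, and leaving out 1 array at a time gave 3 throughout. The log2 fold change of *Cdkn1b* turned positive with quantile normalization (0.036), median scaling (0.065), spike-in scaling (0.21), normexp correction (0.043), without control replicate 3 (0.017) and without HX630 replicate 1 (0.049), ran from -0.083 to 0.049 with 1 array left out, and was called under none of the 23. Probe 1 of *Cdkn2b* was no longer past 1.5-fold with normexp correction (0.43). The genes of the 4 lists called higher (6) were 10 with quantile normalization, 12 with median scaling, 15 with spike-in scaling and 22 with no fold change threshold, and 6 to 9 with 1 array left out. Those called lower (5) were 2 with spike-in scaling, 11 with no fold change threshold and 5 with any 1 array left out. Of 13 proliferation genes, 1 was called higher with median scaling and 4 with spike-in scaling. *Cdkn1c* lost its adjusted p below 0.01 in 7 of 23 alternatives and *Cdkn2d* in 1. The cause of these shifts was not tested. Of all called probes 40.1% were higher, against 49.9% with quantile normalization, 51.6% with median scaling, 69.9% with spike-in scaling (4345 higher and 1871 lower, against 2131 and 3182) and 31.8% with normexp correction (1355 and 2906). Without the fold change threshold 5763 probes were higher and 7243 lower. The deposited log2 table gave 2131 and 3182, and the methods' t-test 2110 and 3126 at the thresholds of the methods and 1981 and 2883 after Benjamini-Hochberg adjustment. Replicate numbers are positions on the slide, and the deviations of same-numbered samples correlated at 0.523, -0.0093, 0.243 and 0.381 for numbers 1 to 4, so they were not taken as pairs, and not every sample correlated best with its own number. With the replicate number as a block, 2210 probes were called higher and 3343 lower, and no call of a member probe or count of list genes moved by over 1.5 times. Signal over background limits *Cdkn2a*, for which no change could be measured, and the dim probes of *Cdkn1a* and *Cdkn2b*.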
